A study of Arabidopsis thaliana with 21 samples.

Results

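Dark-grown seedlings of Arabidopsis thaliana turn green once they are lit, and the comparison of 1 h with 18 h of continuous red light follows that change in wild type (ecotype Col-0). It sets the 3 arrays of the group WT_R18 directly against the 3 of WT_R1, which makes 6 of the study's 21 arrays, and covers all 22746 probe sets that are not controls. Both groups were sown without sucrose, chilled at 4 °C in the dark for 4 days, lit with white light for 3 h to start germination and then kept in darkness at 21 °C for 4 days before they went to red light. WT_D1 and WT_D18, 3 arrays each, were raised in the same way and kept in the dark for 1 h or 18 h beyond the 4 days, so they span the same 17 h of age without light and share no array with the red groups. The other 9 arrays were WT_D0, pif3_D0 and pif3_D1, where pif3 is a mutant of a phytochrome-binding transcription factor. They served only for the shared normalization, the mean intensity of each probe set and the spread between replicates. The labels name the tissue as etiolated seedlings and the replicates as biological. The comparison asks which genes went on changing between the first hour of red light and the eighteenth.

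A seedling in the dark holds etioplasts, plastids without thylakoids, and lives on its seed reserves while the hypocotyl elongates. Light absorbed by phytochrome lets nuclear genes for chlorophyll synthesis, light-harvesting proteins, photosystem subunits and carbon fixation be transcribed, and the plastid then builds thylakoids together with proteins that its own genome encodes. Storage proteins and oil are used up over the same days, and elongation growth of the hypocotyl slows as the cotyledons open and expand.

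Each array gave 1 intensity per probe set on a linear scale. The arrays were brought to a common distribution by quantile normalization, values below 0 were set to 0, 16 units were added and log2 was taken, so a log2 change below is on that offset scale, which shrinks the changes of dim probe sets. Intensities are given in normalized units before the floor, and the size of a log2 change against a group with a mean under 16 units rests on the offset. A probe set or gene was called higher or lower at a Benjamini-Hochberg adjusted p under 0.05 (limma, two-sided, over all 22746 probe sets). In the 6 red arrays the deposited medians ran from 49.5 to 95.0 units and 10.7% to 11.9% of values lay below 0. Arrays of the same group correlated at r = 0.977 to 0.988 in WT_R1 and 0.984 to 0.990 in WT_R18 across probe sets, lowest for pairs with WT_R1 replicate 2. The 25S ribosomal RNA control read 173 to 327 units in the WT_R1 arrays and 2914 to 3736 in the WT_R18 arrays, against 719 to 5166 in WT_D1 and 303 to 4689 in WT_D18. That signal therefore moved with the comparison, and where a named gene loses its call in a fit that holds it as a covariate, that fit's adjusted p is given below. For the GAPDH control, the signal near the 3' end over that near the 5' end, a sign of RNA integrity, lay between 1.33 and 1.60 in all 6 red arrays. The same ratio for actin was 3.92 to 4.096 in WT_R1 and 4.18 to 5.02 in WT_R18, without overlap, against 4.19 to 5.11 in WT_D1 and 3.79 to 5.05 in WT_D18, and its part in the results was not tested. HYH, a bZIP factor of the light pathway, lay at 9.43, 9.96 and 1.67 units in WT_D1, at 9.17, 4.8 and 4.32 in WT_D18 and at 118, 86.1 and 109 in WT_R1, and each WT_R18 array was higher still, so the lit and dark arrays separated as labelled. In RNA from seedlings, fewer cells of a type and less RNA per cell cannot be told apart.

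Over the 17 h in red light the seedlings changed broadly. Most measured genes of chlorophyll synthesis, antenna, photosystems, carbon fixation, photorespiration and thylakoid assembly rose, while seed reserve genes, most amino acid breakdown and tubulin genes and part of the wall growth genes fell. In all, 5971 of 22746 probe sets were called (26.3%), 2714 of them higher (11.9%) and 3257 lower (14.3%). Large changes were mostly upward: 784 called probe sets were at least 2-fold higher and 405 at least 2-fold lower (5.23% together), 164 and 60 passed 4-fold, and 31 and 7 passed 8-fold. Falls were commonest among bright probe sets. Of the 1798 with a mean of 800 units or more, 14.6% were called higher and 36.9% lower, whereas of the 10023 under 50 units 6.24% were higher and 4.15% lower. Represented by 1 probe set each, 13355 named genes gave 1402 higher (10.5%) and 1772 lower (13.3%), with a median log2 change of -0.010 over all genes. The split depended on scaling: 45.5% of the called probe sets were higher here, 56.6% of 2602 with the 25S signal as a covariate and 71.2% of 1164 with no scaling between arrays.

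Over the same 17 h in darkness few single probe sets passed the test. In all, 12 (0.0528%) were called between WT_D1 and WT_D18, 9 higher (0.0396%) and 3 lower (0.0132%), although 3712 had an unadjusted p under 0.05, and 4 were called with the replicate number as a block. The SD of the log2 change over probe sets was 0.508 in red light and 0.257 in darkness. In red light 1211 probe sets had a log2 change of at least 1 in either direction, against 98 in darkness. The median standard error was 0.140 for both changes. The model fixes that equality, since all groups share 1 spread per probe set and have 3 arrays each. Across the 22746 probe sets, which share the same probes and normalization, the log2 changes of both intervals correlated at r = -0.0931. The difference between the intervals was called for 4274 probe sets (18.8%), 2113 higher (9.29%) and 2161 lower (9.5%) in red light, and for 1074 (8.04%) and 1141 (8.54%) of the named genes. The count in darkness fell to 0 when WT_D18 replicate 2 or WT_D18 replicate 3 was left out (with 2253 and 3208 probe sets at an unadjusted p under 0.05) and lay at 4 to 8 without any other single array. Of the 8 named genes called in darkness (0.0599%), 5 were higher (0.0374%) and 3 lower (0.0225%), and 2 were also called in red light. AT4G30460 went from 73.2, 69.8 and 70.3 units to 39.5, 45.3 and 42.7 in darkness and from 57.9, 66 and 72.6 to 110.03, 101 and 95.6 in red light. It thus fell in the dark (-0.57, adjusted p = 0.0456) and rose in the light (0.54, adjusted p = 0.000558). AT3G19900 was higher at the later time in both, with a log2 change of 0.70 in darkness and 0.35 in red light (adjusted p = 0.0328), though the red call held in 2 of 6 fits with 1 array left out and the adjusted p was 0.136 without WT_R18 replicate 1 and 0.0698 with the 25S covariate.

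**Figure D1:**
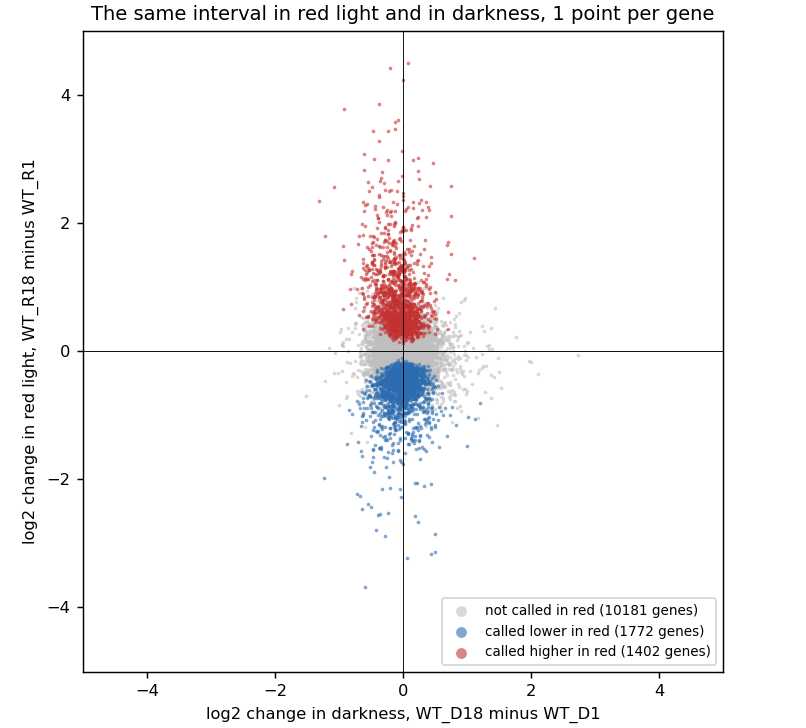
Each point is 1 of 13355 genes, with the log2 change over the interval in darkness (WT_D18 minus WT_D1) on the horizontal axis and in red light (WT_R18 minus WT_R1) on the vertical axis, both on the log2(value + 16) scale. The 1402 genes called higher and 1772 called lower in red light spread along the vertical axis, with a far narrower spread on the horizontal one.

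Set against the 6 dark arrays, most of the called genes went from overlapping them to lying wholly above or below them. A group overlaps here unless its 3 arrays all lie above, or all lie below, the 6 dark arrays. The genes were called from the same red arrays, so the shares among called genes follow in part from that selection. Of the 1402 genes called higher, 885 (63.1%) overlapped the dark arrays after 1 h of red light and lay above all 6 after 18 h. Another 191 (13.6%) lay above them at both times, 33 went from below to above, and 76 came up from below to overlap them. Of the 1772 genes called lower, 1246 (70.3%) overlapped them after 1 h and lay below all 6 after 18 h, 129 (7.28%) were below at both times, 82 came down from above to overlap them and 29 went from above to below. Among all 13355 genes the path from overlap to above was taken by 9.43% and that from overlap to below by 15.5%. The 3 and 3 red arrays did not overlap for 4901 genes (36.7%).

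**Figure D2:**
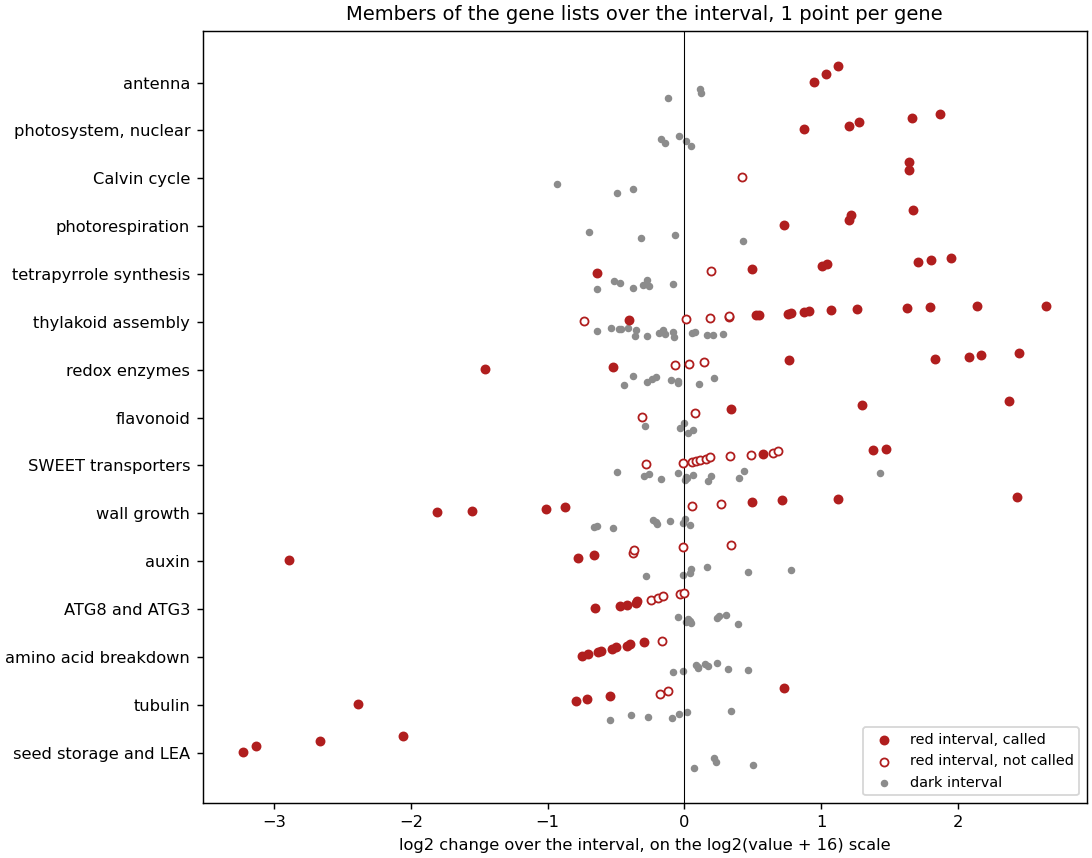
Each point is 1 gene of the list named on the left, with its log2 change over the interval on the horizontal axis (log2(value + 16) scale): filled red circles were called in red light, open ones were not, and grey points give the same gene in darkness. Antenna, photosystem, photorespiration and most tetrapyrrole and thylakoid genes lie to the right of 0 in red light, seed storage and LEA genes and amino acid breakdown genes to the left, and the grey points spread less widely.

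Genes of chlorophyll synthesis rose along most of the measured pathway. Of 29 listed tetrapyrrole genes 8 were measured, and 6 were called higher and 1 lower, with a median log2 change of 1.03 (all genes -0.010; 10.5% of all genes higher). HEMB1 encodes 5-aminolevulinate dehydratase, an early step. Its intensities were 868, 639 and 571 units in WT_R1 and 1419, 1327 and 1419 in WT_R18. All WT_R18 arrays lay above the WT_R1 arrays, and the log2 change was 1.01 (SE 0.14, adjusted p = 7.36e-05). The uroporphyrinogen decarboxylase genes HEME1 and HEME2 act downstream of it. HEME1 read 396, 273 and 269.8 units after 1 h and 1260.3, 1053 and 1414 after 18 h, and HEME2 read 489.9, 379.5 and 349.9 and then 1329, 1257 and 1462. Neither gene's groups overlapped, and the changes were 1.95 (SE 0.16) and 1.70 (SE 0.16). CHLI2, a second gene for the I subunit of magnesium chelatase, where chlorophyll synthesis parts from heme synthesis, went from 182, 131 and 115 units to 539.7, 478 and 578. CHLM, the magnesium protoporphyrin methyltransferase, went from 1532, 1285 and 1402 to 2944, 2555 and 3269. Both rose beyond the spread of their arrays, by 1.80 (adjusted p = 4.39e-06) and 1.04 (adjusted p = 1.12e-05). In darkness none of the 8 genes was called, though 4 had an unadjusted p under 0.05. All 8 had log2 changes below 0 there, from -0.64 to -0.083.

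Calls at both ends of the pathway were weaker. GSA1, which makes 5-aminolevulinate from glutamate-1-semialdehyde and was singled out after its values were seen, rose by 0.49 (adjusted p = 0.0371), from 518, 411 and 341 units to 594, 610.2 and 576. That call held in 1 of the 6 fits with an array left out, and the adjusted p was 0.175 without WT_R1 replicate 3 and 0.642 with the 25S covariate. PORB, a protochlorophyllide oxidoreductase that seedlings keep in light and dark, was at 3856, 2653 and 2309 units after 1 h and 1814, 1814 and 1887 after 18 h. It fell by 0.64 in red light (adjusted p = 0.0281), which held in 2 of the 6 fits and reached 0.141 without WT_R1 replicate 1 and 0.284 with the covariate. In darkness its log2 change was -0.64 (adjusted p = 0.152), and the test of the difference between the intervals gave an adjusted p of 1. AT1G74470, listed as a geranylgeranyl reductase and the 1 member not called, had a mean of 3832 ± 286 units in WT_R1 and 4381 ± 438 in WT_R18 (SD, n = 3 each) (adjusted p = 0.395).

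The measured antenna and photosystem genes of the nucleus were all called higher after 18 h, beside 10.5% of all genes. The 3 measured antenna genes of 21 listed encode LHCB4, the CP29 protein that links the photosystem II core to its outer antenna. LHCB4.1 read 4389.6, 4106 and 3659.6 units after 1 h and 8285, 7303 and 7854 after 18 h. LHCB4.2 read 2867, 2558 and 2841 and 5719, 5419 and 5831, and LHCB4.3 read 256, 247 and 223 and 538, 496 and 602. In each gene every WT_R18 array lay above every WT_R1 array, and the log2 changes of 0.95, 1.03 and 1.12 had adjusted p of 7.71e-07, 1.19e-07 and 7.65e-06. Close relatives can share signal on an array, and how far these probe sets do so was not tested. All 5 measured photosystem and ATP synthase genes of 35 listed were called higher, with a median log2 change of 1.27. PSAN, a subunit on the lumenal side of photosystem I, went from 1243, 1056 and 1275 units to 4640.4, 3787 and 4775, a change of 1.87 (SE 0.11). PSAE-1, a stromal subunit of photosystem I, went from 2206, 1489 and 1967 to 5972, 5831 and 5972. Its 3 WT_R18 arrays were nearly alike while WT_R1 replicate 2 was the lowest of the earlier arrays, and it rose by 1.66 (SE 0.20). ATPC1, a gamma subunit of the plastid's ATP synthase, rose by 1.20 (SE 0.087), from 1846 ± 127 to 4277 ± 347 units (SD, n = 3 each). The small photosystem II proteins PSBY and PSBW rose by 1.27 and 0.88. All 8 of these genes were called in every fit with 1 array left out and with the 25S signal as a covariate, and in darkness none was called, at log2 changes of -0.17 to 0.12.

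Genes of carbon fixation and photorespiration mostly rose with them. Of 20 listed Calvin cycle genes 3 were measured, and 2 were called higher and none lower, beside 10.5% and 13.3% of all genes. RCA, Rubisco activase, had the largest gain in intensity units of all 13355 genes: it read 2161, 2069 and 2029 units in WT_R1 and 6406, 6638 and 6535 in WT_R18. The groups were far apart and tight within themselves, and the log2 change was 1.64 (SE 0.15, adjusted p = 1.05e-06). SBPASE, the sedoheptulose-bisphosphatase of the Calvin cycle, went from 1151, 860.2 and 1039.7 to 3173, 2777 and 3659.6 units in red light (1.64, adjusted p = 2.8e-05), with no overlap. In darkness the same gene had a mean of 850.1 ± 45.7 units at 1 h and 454 ± 148 at 18 h (SD, n = 3 each), which did not pass the test (adjusted p = 0.0961). PRK, phosphoribulokinase, overlapped between groups, with 3737, 2813 and 3221 units after 1 h and 4501, 3737 and 4856 after 18 h. Its log2 change of 0.42 was not called (adjusted p = 0.0982). In darkness PRK had a log2 change of -0.49 (adjusted p = 0.192), and its difference between the intervals was called (0.92, adjusted p = 0.0176). That difference was called for all 3 Calvin cycle genes. None of the 3 was called in darkness, though all had an unadjusted p under 0.05 there. In photorespiration, which recovers carbon from the oxygenation of Rubisco's substrate, all 4 measured genes of 15 listed were called higher. Their median was 1.21, and 10.5% of all genes were called higher. HPR, the peroxisomal hydroxypyruvate reductase, went from 1856, 1669.9 and 1776 units to 4072, 3648 and 4703, above every dark array at both times, a change of 1.21 (adjusted p = 1.5e-06). AT1G32470, AT1G11860 and AT1G80380 of that list rose by 1.67, 1.20 and 0.73. AT1G80380 overlapped the dark arrays at both times and its log2 change in darkness was 0.42 (adjusted p of the difference 0.318), while for the other 3 the difference was called. With the 25S covariate AT1G80380 lost its call (adjusted p = 0.0524).

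**Figure D3:**
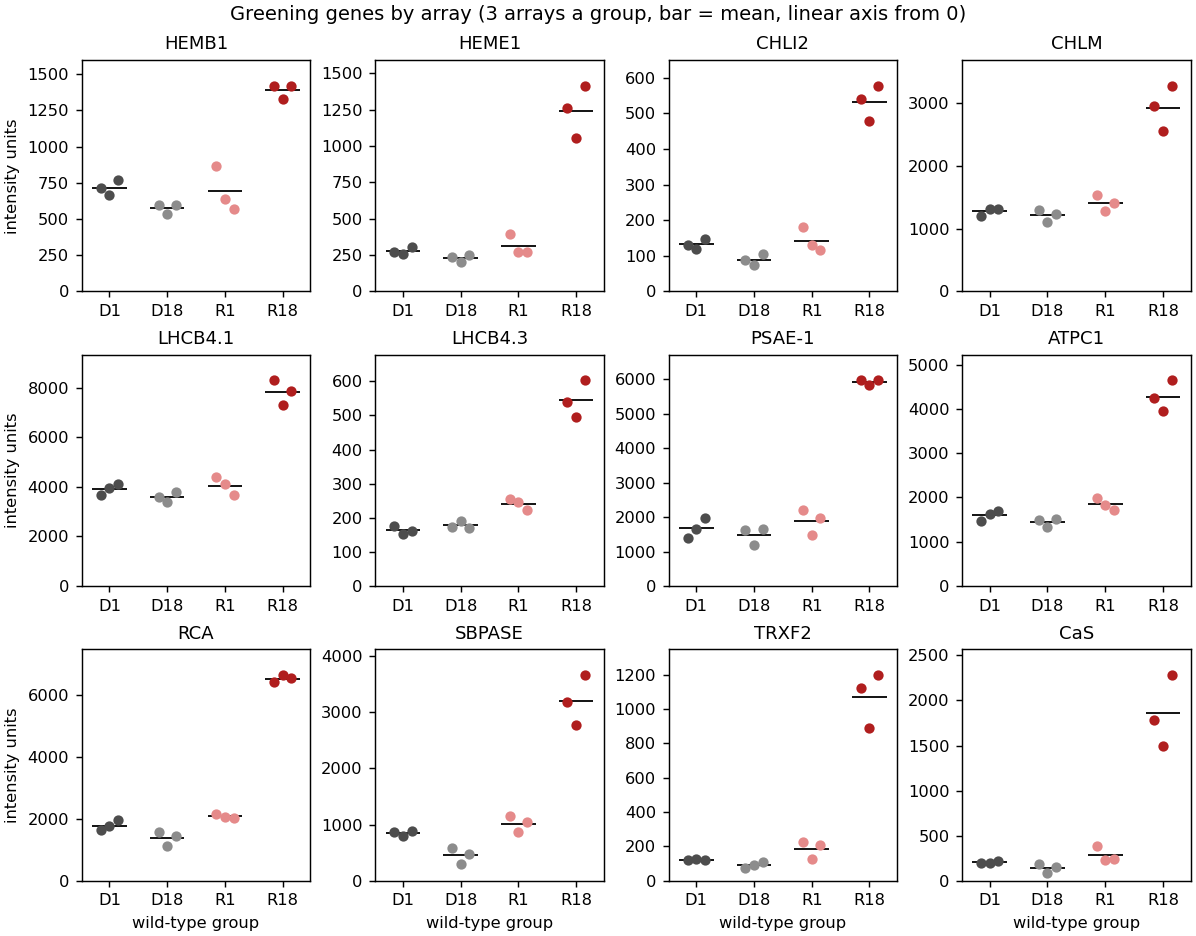
Intensity of 12 genes of chlorophyll synthesis, antenna, photosystem I, ATP synthase, carbon fixation and redox control in each wild-type array, with the group on the horizontal axis (D1 and D18 darkness, R1 and R18 red light), intensity units from 0 on the vertical axis, 1 point per array and a bar at the mean. In every panel the 3 R18 arrays lie above the 9 others.

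Genes for proteins that assemble or serve the thylakoid rose for the most part. Of 18 measured, 12 were called higher and 1 lower, beside 10.5% and 13.3% of all genes. The median log2 change was 0.77, and 11 of the 12 kept their call in every fit with 1 array left out. CaS, a calcium-sensing thylakoid protein, read 388, 231 and 241 units after 1 h and 1789, 1497 and 2282 after 18 h. Every WT_R18 array lay far above the highest WT_R1 array, and the change was 2.65 (SE 0.25, adjusted p = 1.42e-06). The nuclear subunits of the plastid NDH complex, which carries cyclic electron flow around photosystem I, rose as well. NdhN went from 194, 136 and 136 to 801, 575 and 837 units and NdhL from 247, 176 and 201 to 661, 574 and 788. NdhN rose by 2.13, NdhL by 1.62 and NdhS by 0.78, all without overlap. TROL, which tethers ferredoxin-NADP reductase to the membrane, went from 447 ± 51.5 to 1596 ± 237 units (SD, n = 3 each), a change of 1.80 (adjusted p = 2.46e-06). HCF101, needed for the iron-sulfur clusters of photosystem I, rose by 1.26 (adjusted p = 1.23e-05). The list ran from -0.73 to 2.65, and its dark median was -0.17 with none called and 6 at an unadjusted p under 0.05. With no scaling between arrays 5 of its members were called higher, and 11 with the 25S covariate.

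Redox enzymes differed among themselves. The list of 10 holds plastid thioredoxin and peroxide enzymes together with methionine sulfoxide reductases, which are not all plastid proteins. Of the 10, 5 were called higher and 2 lower, beside 10.5% and 13.3% of all genes. TRXF2, an f-type thioredoxin that activates Calvin cycle enzymes by reduction, went from 225, 128 and 206 units to 1122, 887 and 1197. TAPX, the thylakoid ascorbate peroxidase, went from 159.8, 105 and 154 to 729, 494 and 853, and NTRC, a plastid NADPH-dependent thioredoxin reductase, from 301, 199.8 and 211 to 893, 755 and 986. The groups of all 3 genes were separate, with log2 changes of 2.44 (SE 0.22), 2.17 (SE 0.24) and 1.83 (SE 0.13). SAPX, the stromal counterpart of TAPX, was at 258, 212 and 182 units after 1 h and 226, 206 and 232 after 18 h. Its groups overlapped and it was not called (log2 change 0.036, adjusted p = 0.922). SRX, a sulfiredoxin that restores oxidized peroxiredoxin, rose by 0.76 (adjusted p = 0.00279). The methionine sulfoxide reductases MSRB6 and MSRB9 moved in opposite directions. MSRB6 rose from 130.03 ± 10.1 to 602 ± 42.8 units and MSRB9 fell from 1974 ± 81.6 to 727 ± 219.8 (SD, n = 3 each), by 2.08 and -1.46 on the log2 scale (adjusted p = 2.74e-08 and 1.15e-05). LYC, lycopene cyclase of carotenoid synthesis and the 1 measured gene of its list, rose by 0.66, from 540.4, 583 and 604 units to 916, 801 and 1046.

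Plastid-encoded transcripts changed less, and unevenly between complexes. Of 33 photosynthesis genes of the plastid genome, 9 were called higher and 2 lower, beside 10.5% and 13.3% of all genes. Their median log2 change was 0.19. In photosystem II, 8 of 15 were higher and 1 lower (median 0.56), and in photosystem I 1 of 5 was higher. Of 6 cytochrome b6f genes 1 was lower, and rbcL, the large subunit of Rubisco, was not called. None of the 6 ATP synthase genes (median 0.0057), none of 10 NDH genes (0.028) and none of 4 RNA polymerase genes (-0.20) was called by limma, and 1, 0 and 0 of them had an unadjusted p under 0.05. Of 15 ribosomal genes 1 was higher and 1 lower, and over all named genes 23.8% were called. psbA encodes the D1 reaction centre protein of photosystem II. It read 1767, 1896 and 1764 units in WT_R1 and 3856, 3135 and 3368 in WT_R18. The groups did not overlap, the change was 0.92 (SE 0.19, adjusted p = 0.00168), and the WT_R18 arrays lay above all 6 dark arrays. psbD and psbC, the D2 protein and the CP43 antenna of photosystem II, lie next to each other and are transcribed together, so their signals are not independent. psbD went from 249.5, 301 and 282 units to 866, 443 and 737 and psbC from 828, 738 and 729.6 to 1901, 1251 and 1785. In both genes WT_R18 replicate 2 was the lowest of its group but still above every WT_R1 array, and the changes were 1.20 and 1.07 (adjusted p = 0.00387 and 0.00449). psbH, a small phosphoprotein of the complex, rose by 0.56 (adjusted p = 0.0111, and 0.179 with the 25S covariate).

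Several of these calls were weak. psbZ, another small subunit, rose by 0.60 (adjusted p = 0.0123), with 0.0734 when WT_R18 replicate 3 was left out. psbM fell by 0.28 (adjusted p = 0.0149) and reached 0.0705 without WT_R1 replicate 3, one of 2 arrays on which its call depended. Of the 9 rises, 4 were called in every fit with an array left out. With the 25S signal as a covariate psbA stayed called (1.15, adjusted p = 0.0173) and was the only 1 of the 9 to do so, while psbD was at 1.20 (0.0961), psbC at 0.88 (0.181) and psbZ at an adjusted p of 0.226. In darkness none of the 69 measured plastid genes was called (limma), and 2 had an unadjusted p under 0.05. psaA, a core protein of photosystem I singled out after its values were seen, had the largest plastid rise, 1.36 (adjusted p = 0.0231), but the call held in 2 of 6 fits, with an adjusted p of 0.1 without WT_R18 replicate 1, and the value with the 25S covariate was 0.591.

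**Figure D4:**
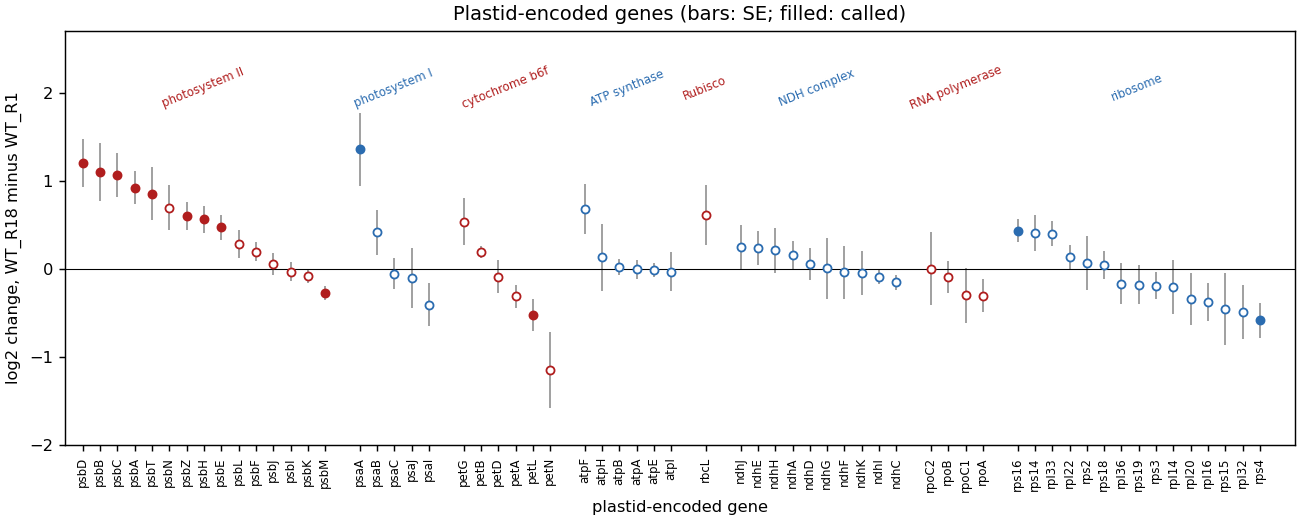
Log2 change from WT_R1 to WT_R18 of 62 plastid-encoded genes grouped by complex, on the log2(value + 16) scale, with bars of 1 SE and filled points for genes called at an adjusted p under 0.05. Most filled points belong to photosystem II, and psaA of photosystem I is the highest at 1.36.

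Seed reserve genes fell furthest, with a median log2 change of -2.90, the lowest of any list. All 4 measured members of the storage and late embryogenesis list, of 19 entries, were called lower, from -3.23 to -2.06, beside 13.3% of all genes. In darkness all 4 had changes above 0 that were not called. PAP85, a vicilin-like storage protein gene, was at 980.5, 1256 and 1488 units after 1 h of red light and at 140.4, 72.8 and 187 after 18 h. Its dark arrays held 1124, 1635 and 1271 units at 1 h and 2136, 1494 and 2081 at 18 h. Only the WT_R18 arrays were low, by 3.13 on the log2 scale from WT_R1 (SE 0.30, adjusted p = 1.44e-06). M17, a late embryogenesis abundant gene, went from 269.9, 263 and 419 units to 65.4, 64.1 and 57.9, and AT3G01570 of the same list from 435, 587 and 760.3 to 103, 47.3 and 94. M17 fell by 2.06 and AT3G01570 fell by 2.66, both without overlap. M10, another late embryogenesis gene, went from 138 ± 47.6 units to -24.8 ± 15.8 (SD, n = 3 each), below the offset, so its change of -3.23 rests on that offset. OLEO3, an oleosin that coats oil bodies, read 609, 474 and 485 units and then 87.8, 63.9 and 74.2. It fell by 2.56 (SE 0.14, adjusted p = 6.94e-09), against -0.39 in darkness (adjusted p = 0.188), and the difference was called (adjusted p = 2.89e-06). ICL, isocitrate lyase of the glyoxylate cycle that turns stored fat into sugar, had the largest loss in intensity units of all 13355 genes, from 7215, 5419 and 5972 units to 3573, 3301 and 2867. It fell by 0.93 (adjusted p = 4.88e-05) but remained bright. SDP1, the lipase that starts oil breakdown, was at 575 ± 47.5 and 652 ± 14.6 units (SD, n = 3 each) and was not called (adjusted p = 0.236).

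Genes for the breakdown of amino acids fell together and modestly. Of 10 measured, 9 were called lower and none higher (median -0.52; 13.3% of all genes were lower), and all 9 kept the call in every fit with 1 array left out. Against darkness, where the median was 0.13, the difference was called for all 10. MCCA, a subunit of methylcrotonyl-CoA carboxylase in leucine breakdown, went from 2764, 2898 and 3058 units to 1852, 1811 and 1661. IVD, isovaleryl-CoA dehydrogenase of the same route, went from 2193, 2482 and 2583 to 1811, 1901 and 1686. Neither pair of groups overlapped, and they fell by 0.71 (SE 0.071) and 0.42 (SE 0.069). The electron transfer flavoprotein subunits ETFALPHA and ETFBETA, which take electrons from these dehydrogenases in the mitochondrion, fell by 0.75 and 0.53. ALDH6B2, methylmalonate semialdehyde dehydrogenase of valine breakdown, fell by 0.40 with an SE of 0.046. DELTA-OAT, ornithine aminotransferase, went from 521, 581 and 508 units to 329.7, 339 and 353, a change of -0.63 (adjusted p = 0.0018), while in darkness it was at 536 and 746 units. With the 25S covariate 6 of the 10 were called lower, DELTA-OAT not among them (adjusted p = 0.0721), and with no scaling between arrays none was, with 5 at an unadjusted p under 0.05. ATG8 genes, whose small proteins coat autophagosomes, were lower for 5 of 10 members measured with ATG3, with a median of -0.30. ATG8B went from 439, 507 and 642 units to 348, 358 and 278 and ATG8F from 3284, 3016 and 3448 to 2653, 2588 and 2373. They fell by 0.66 and 0.35 (adjusted p = 0.00533 and 0.00095), and both kept the call in every fit with 1 array left out. The 3 other falls, of APG8H, ATG8D and ATG8H, held in 4 of 6 such fits, with adjusted p of 0.0699 without WT_R1 replicate 3, 0.0659 without WT_R1 replicate 2 and 0.0722 without WT_R18 replicate 3. With the 25S covariate and with no scaling between arrays none of the 10 ATG8 and ATG3 genes was called, with 3 and 0 at an unadjusted p under 0.05.

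**Figure D5:**
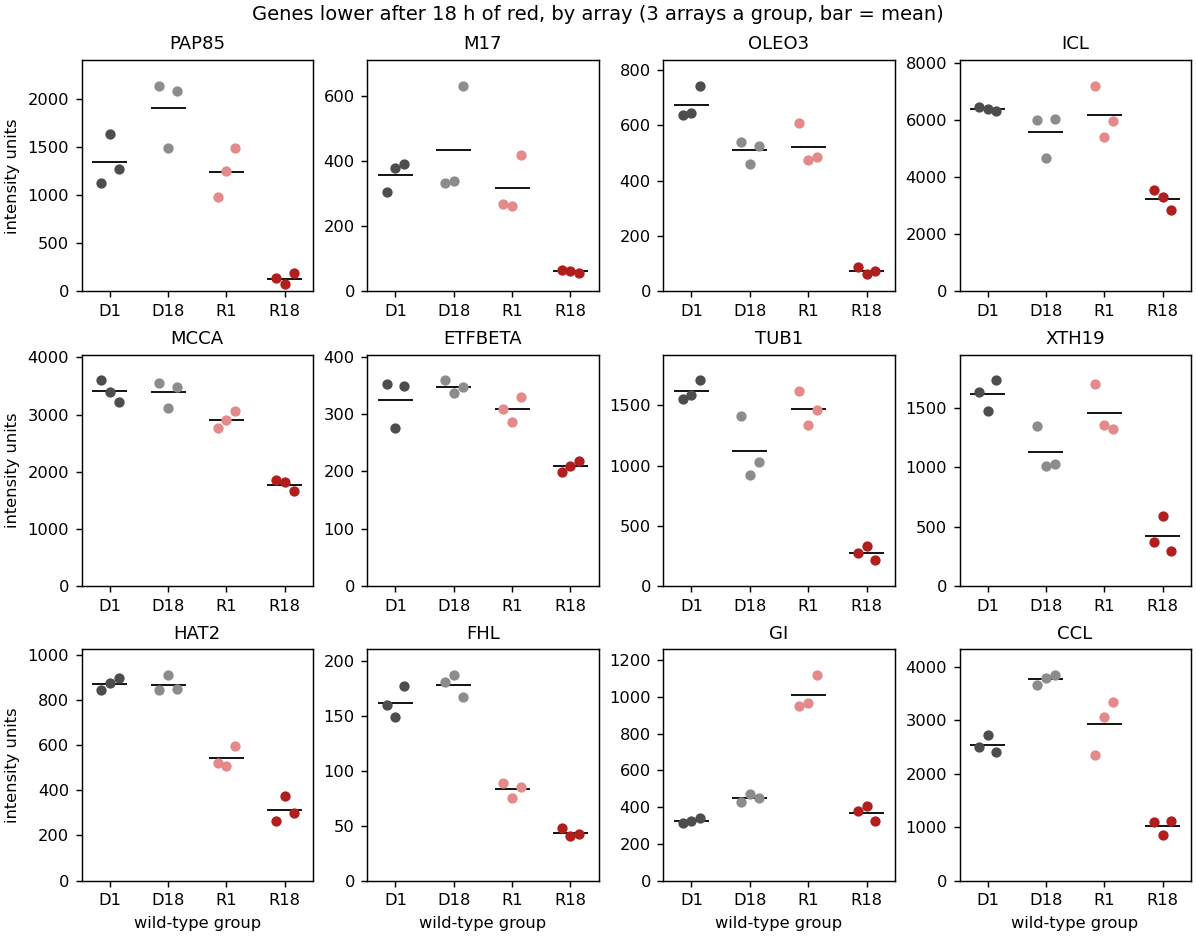
Intensity of 12 genes that were lower after 18 h of red light than after 1 h, in each wild-type array, with the group on the horizontal axis (D1 and D18 darkness, R1 and R18 red light), intensity units from 0 on the vertical axis, 1 point per array and a bar at the mean. In 11 panels the R18 arrays lie below the 9 others, and GI is the exception, with high R1 arrays and R18 arrays among the dark ones.

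Cytoskeleton and wall genes split between falls and rises. Of 7 tubulin genes 4 were called lower and 1 higher, beside 13.3% and 10.5% of all genes. TUB1, a beta-tubulin, read 1617, 1336 and 1459 units after 1 h and 271, 330.2 and 212 after 18 h. It fell by 2.39 (SE 0.16, adjusted p = 4.4e-08), against -0.54 in darkness (adjusted p = 0.137). TUB6, TUA6 and TUB5 fell by 0.79, 0.71 and 0.55. TUB5 had a log2 change of -0.39 in darkness, and the test of the difference gave an adjusted p of 0.393. TUA1, an alpha-tubulin known from pollen, rose by 0.73, from 450.4, 549 and 483 units to 851, 863 and 764, and overlapped the dark arrays at both times. Of 10 expansins and xyloglucan-modifying enzymes, which loosen and rebuild growing walls, 4 were higher and 4 lower. XTH19, a xyloglucan endotransglucosylase/hydrolase, went from 1699.8, 1353 and 1318 units to 367, 589.8 and 297, and its relative XTH18 from 853, 918 and 463 to 159, 279 and 281. Both fell without overlap, by 1.81 and 1.56. XTH16 of the same family moved the other way, from 470.1, 439.5 and 445 units, below all 6 dark arrays, to 947, 1004 and 1051, above all of them. It rose by 1.12 (SE 0.092, adjusted p = 2.94e-07). Among expansins, EXPB3 rose from 33.8, 29.3 and 26.8 units to 196, 209.6 and 299.7 (2.43, adjusted p = 5.42e-08) and EXPA4 fell from 516, 594 and 487 to 304, 265 and 279 (-0.87, adjusted p = 5.31e-05). XTH33 fell by 1.01, with an adjusted p of 0.00922 that was 0.0561 without WT_R18 replicate 3. With the 25S covariate XTH33 and TUA1 lost their calls (adjusted p = 0.323 and 0.0679), and with no scaling between arrays 1 tubulin gene and 3 wall genes were called. GH9B13, an endoglucanase of family GH9, went from 845, 679 and 753 units to 118, 109 and 123. Its groups were far apart, and it fell by 2.54 (SE 0.12) against -0.36 in darkness.

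Hormone-related genes were called in part. Of 7 auxin-related genes 3 were lower and none higher, beside 13.3% and 10.5% of all genes. IAA20, an auxin-inducible member of the Aux/IAA family, went from 169, 116 and 149.8 units to 13.6, -5.18 and 4.95, where it had been at 288 ± 18.2 and 236 ± 39.7 in darkness (SD, n = 3 each). Its WT_R1 arrays lay below all dark arrays and its WT_R18 arrays were near 0, so its change of -2.89 rests on the offset and ran from -5.02 to -1.57 over all settings tried. HAT2, an auxin- and shade-induced homeodomain-leucine zipper gene, went down further, from 521, 507 and 596 units to 262, 373 and 298 (dark means 872 and 866). FHL, which helps carry phytochrome A into the nucleus, did so too, from 89.3, 75.7 and 85.4 to 47.7, 40.4 and 42.4 (dark means 162 and 178). They fell by 0.78 (adjusted p = 1.59e-05) and 0.74 (adjusted p = 0.000427), from levels already under the dark arrays. FHL lost its call with the 25S covariate (adjusted p = 0.0669). IAA30 fell by 0.66, a call also lost there (adjusted p = 0.224), while IAA29 was at 28.2, 31.1 and 32.2 units after 1 h and 40.3, 46.2 and 42.2 after 18 h and was not called (0.34, adjusted p = 0.067). EIN3, the central ethylene response factor, was at 1495 ± 105 and 1268 ± 47.2 units (SD, n = 3 each) and fell by 0.23 (adjusted p = 0.0303), a call that held in 2 of 6 fits with 1 array left out and reached 0.124 without WT_R1 replicate 3 and 0.628 with the 25S covariate. None of the 3 gibberellin receptor genes GID1A, GID1B and GID1C was called by limma (adjusted p of 0.638, 0.201 and 0.414), nor did any have an unadjusted p under 0.05.

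Some genes that differed from darkness after 1 h of red light came back towards the dark level by 18 h, while others moved away from it. GI, a clock and photoperiod gene, was at 949.9, 968 and 1119 units in WT_R1, above all dark arrays, and at 377, 407 and 327 in WT_R18, where dark arrays held 317, 326 and 340.1 at 1 h and 431, 474 and 453 at 18 h. It fell by 1.41 (SE 0.10, adjusted p = 1.02e-07) in red light, against 0.45 in darkness (adjusted p = 0.102). AT1G73480 followed the same course, from 755, 832 and 665 units to 204, 138 and 162, against 172, 195 and 145 and 255, 224 and 227 in darkness, a change of -2.07 (adjusted p = 3.33e-08). EXO, a gene of brassinosteroid-promoted growth, moved the opposite way, from 1103, 1208 and 1009 units to 1525, 1633 and 1626. It rose by 0.52 (adjusted p = 0.00772, and 0.156 with the 25S covariate) but remained under all dark arrays, whose means were 3665 and 2798. HYH, already above darkness after 1 h at a mean of 104 units, reached 233, 194 and 229 and rose by 0.97 (adjusted p = 0.000894). CCL, whose transcript is known to be short-lived, fell by 1.49 in red light, from 2357, 3063 and 3350 units to 1103, 859 and 1111, while in darkness it read 2505, 2727 and 2404 and then 3666, 3787 and 3847 (0.56, adjusted p = 0.0961).

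Among transcription factor families, 2 of 21 named bHLH factors were higher and 5 lower, beside 10.5% and 13.3% of all genes. SPT, which restrains cotyledon and leaf growth, went from 307, 279 and 274 units to 115, 110.1 and 117, and BIM1, a partner of brassinosteroid-response factors, from 489.8, 447 and 551 to 224, 210.4 and 239. Both fell without overlap, by 1.22 (SE 0.07) and 1.09 (SE 0.11). UPB1, known for setting the balance of reactive oxygen in the root tip, fell by 1.38 (adjusted p = 0.000121), and ATMYC1, an epidermal factor, rose by 0.93 (adjusted p = 8.38e-06). Of 17 bZIP factors 3 were higher and 5 lower. EEL, a seed factor related to ABI5, fell by 0.89, from 79, 95.5 and 96.7 units to 48.4, 43.2 and 32.7, and BZIP28, a sensor of stress in the endoplasmic reticulum, fell by 0.49 (adjusted p = 7.08e-05). The dim FD, at 1.5 units after 1 h and 18.4 after 18 h, rose by 0.97, a size that rests on the offset.

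Flavonoid and sugar transport genes rose in part. Of 5 measured flavonoid genes 3 were higher and none lower, beside 10.5% and 13.3% of all genes. UGT78D1, a flavonol rhamnosyltransferase, went from 53.3, 28.1 and 24.6 units to 93.1, 128 and 101 (1.30, adjusted p = 0.000213). CHIL, a chalcone isomerase-like protein that aids flavonoid synthesis, was at -0.103, -5.53 and -11.9 units after 1 h and 71.4, 91.3 and 44.3 after 18 h. Before the rise it was below the offset, as in all dark arrays, so its change of 2.37 (adjusted p = 6.21e-09) rests on that offset. UGT78D2, the flavonoid glucosyltransferase, was well above its dark means of 34.7 and 35.7 units at both times, at 304, 288 and 287 and 244, 211 and 246, and was not called between them (-0.31, adjusted p = 0.127). AT4G14090 of this list was called higher at means of -7.17 and 4.55 units, both under the offset, with an adjusted p of 0.0739 without WT_R18 replicate 3 and 0.224 with the 25S covariate. DFR, dihydroflavonol reductase of anthocyanin synthesis, had means of 19.2 and 21.6 units (adjusted p = 0.714). Of 14 SWEET sugar transporters 3 were higher and none lower, beside the same shares of all genes. SWEET17, a fructose carrier of the vacuole, went from 282, 355 and 386 units to 1097, 1139.5 and 723, and SWEET1, a glucose carrier, from 221, 194 and 190.4 to 273, 325 and 327. They rose by 1.47 (adjusted p = 1.1e-05) and 0.57 (adjusted p = 0.000525). SWEET14 rose from a mean of -0.283 units, under the offset, to 31.4.

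Some mitotic genes rose, and the few measured markers of tissues mostly were not called. Of 12 listed root markers 3 were measured, and of 11 stomatal lineage markers 3. None of the 8 vascular or 4 shoot apex markers was measured. AUR1 and AUR2 encode Aurora kinases of mitosis. AUR2 went from 62, 57.7 and 62.7 units to 153, 127 and 166 and AUR1 from 97, 95.1 and 104 to 147, 139 and 169.9. They rose by 1.09 and 0.55 (adjusted p = 7.41e-06 and 4.57e-06). In their list of 16 histone and mitosis genes 4 were higher and 1 lower, beside 10.5% and 13.3% of all genes. BUB3.1 of the spindle checkpoint rose by 0.54. HTB2, a histone H2B, fell by 0.47 (adjusted p = 0.0111, and 0.0578 without WT_R1 replicate 1), and TOPII, a topoisomerase, rose by 0.90 (adjusted p = 0.0167), which held in 4 of 6 fits and reached 0.0681 without WT_R1 replicate 2. With the 25S covariate HTB2 and TOPII lost their calls (adjusted p = 0.272 and 0.543), and with no scaling between arrays none of the 16 was called, with 2 at an unadjusted p under 0.05. The replication gene PRL rose by 0.33 (adjusted p = 0.0321), held in 2 of 6 fits and reached 0.143 without WT_R18 replicate 3 and 0.441 with the covariate. Of the stomatal lineage factors, SPCH was at 28.9, 2.92 and 0.197 units after 1 h and 34.8, 21 and 51.8 after 18 h. Its groups overlapped and it was called at 1.07 (adjusted p = 0.03), which held in 2 of 6 fits and was 0.146 without WT_R1 replicate 3 and 0.383 with the covariate. FMA was at 32.9 and 51.3 units (adjusted p = 0.0528) and MUTE under the offset in both groups. None of the 3 root markers was called by limma, and none had an unadjusted p under 0.05: PYK10, an abundant beta-glucosidase of root and hypocotyl, read 7303, 7163 and 6581 units and then 6264, 6984 and 6501, and EXPA7 and EXPA18 of root hairs had adjusted p of 0.894 and 0.852. WSD1, a wax ester synthase of the cuticle, fell by 1.40 (adjusted p = 0.0063), from 86.9, 138 and 153 units to 35.8, 49.9 and 26.9, a call lost with the 25S covariate (adjusted p = 0.195) and with no scaling (0.0808).

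The 12 largest rises were taken from called genes with separate groups and a mean of at least 50 units in both. Most of them were in genes that the annotation used here names by locus only. AT5G48490 had the largest, from 141, 116 and 123 units to 3337, 2727 and 3690.4, with 68.6, 59 and 82.3 and 64.3, 66.8 and 94.1 in darkness. The WT_R18 arrays also lay above all dark arrays, and the log2 change was 4.51 (SE 0.21, adjusted p = 2.25e-09). AT1G21500 went from 199, 107 and 118 to 2249, 2038 and 2304 units and AT2G34620 from 113, 81.3 and 67.4 to 1245, 1005 and 1396. They rose by 3.86 and 3.59, the latter from an already raised level, since its dark means were 31.1 and 28 units. AT5G38980, AT3G48420, AT2G42220 and AT2G04039 rose by 3.45, 3.44, 3.29 and 3.09. ECS1 rose by 2.95, from 63.2, 213 and 74.6 units to 727, 867 and 1132, with WT_R1 replicate 2 far above the other early arrays. AT1G32220, AT3G10060 and AT2G37240 rose by 2.98, 2.84 and 2.65, beside CaS. AT3G10060 was the least certain of these, with an SE of 0.61 and an adjusted p of 0.00254 (0.0965 with the 25S covariate). With a mean under 16 units in WT_R1 and at least 200 in WT_R18, 3 genes appeared during the interval. AT4G28780 went from -11.5, -0.971 and -2.55 units to 318, 389.6 and 289, AT3G28220 from 6.06, 11.2 and 9.12 to 318, 200.5 and 369.7 and AT1G66100 from 4.35, 20.3 and 11.5 to 288, 256 and 325. Their dark arrays were likewise at background, and their adjusted p ran from 1.96e-09 to 1.65e-06.

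By the same rule, the 12 largest falls beside PAP85, AT3G01570, OLEO3, GH9B13, TUB1 and AT1G73480 were again in genes known here by locus. AT4G22460 went from 357, 375 and 375 units to 55.4, 66.4 and 41.2 and AT5G12940 from 650.1, 692 and 784 to 99.3, 201 and 122. They fell by 2.47 and 2.26. AT2G47780, AT5G66590 and AT5G01670 fell by 2.15, 2.13 and 2.11. AT1G73120 was among the largest losses in intensity, from 2519, 2423 and 3156 units to 608, 432 and 790.1 (-2.15, adjusted p = 2.92e-07), with AT4G32460 (mean 3513 to 1394 units) and AT1G56220 (4335 to 2402). AT2G34020 was the 1 gene that went from at least 200 units to under 16. It read 443, 341 and 288 units in WT_R1 and 25.9, 1.78 and 16.2 in WT_R18, against 533 and 352 on average in darkness, and its change of -3.67 (adjusted p = 5.68e-08) ran from -5.02 to -2.42 over all settings tried.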

How the data were processed

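Whole-seedling RNA was hybridised to 1-colour Affymetrix arrays, from 5 µg of total RNA labelled with biotin, per the labels' protocols. The deposited table holds 1 linear intensity per probe set and array, with 9.78% to 12.1% of values below 0 in the 4 wild-type groups used and unequal medians. For the probe summary, software and scaling were not stated in the labels. From these intensities, 64 controls were set aside and 22746 probe sets were quantile-normalized over 21 arrays, floored at 0, offset by 16 and taken to log2. Means of 7 groups were fitted with limma 3.58.1 in R 4.3.3 (lmFit, eBayes), with two-sided tests and Benjamini-Hochberg adjustment over all probe sets, after a test on simulated data. The 3 arrays of each group limit the precision, and the labels call them biological replicates without saying what was separate.

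Genes were named through the platform annotation, updated with the TAIR10.1 gene table: 13513 probe sets had 1 gene, 503 several and 8730 were not listed, and 13355 genes were kept with the brightest probe set of each. Of 29 gene lists with 517 entries 25 had a measured member. Another 22 lists (gene families and sets of plastid or mitochondrial genes) were added after the annotation was read, so that 489 genes were in a list. Members and lists were chosen with earlier results of these data known. The named genes were the 12 largest rises and falls with separate groups and at least 50 units in both, up to 5 that crossed from under 16 to at least 200 units or back, the 5 largest gains and losses in units, those called in both intervals, and up to 6 called members per list, with uncalled members where 6 or fewer were measured. Alternatives covered the offset (1, 64), scaling, a mean of at least 50 units, the arrays fitted, the replicate number as a block, the 25S ribosomal RNA control as a covariate, and leaving out each array. No sequences were used.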

Additional observations from a re-analysis of the deposited data

Results flagged for a closer look

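The change over the interval differed between red light and darkness for 4274 probe sets, tested as the difference between both changes in limma. Among the named genes 8 stood out, because the log2 change was at least 0.5 in opposite directions in the 2 intervals and the difference was called. Of these only AT4G30460 was called in darkness. For the others the limma adjusted p of the dark change ran from 0.0961 to 0.687, so a change in darkness was not established. The difference in log2 change, red minus dark, was 3.69 for AT2G04039 and 3.45 for AT3G10060, whose red change lost its call with the 25S covariate (adjusted p = 0.0965). It was 3.19 for CaS, the thylakoid calcium sensor, 2.57 for SBPASE of the Calvin cycle, 2.37 for AT1G32470 of the photorespiration list and 2.32 for CHLI2 of magnesium chelatase. AT4G30460 differed by 1.11, with changes called in both intervals. CCL differed by -2.06, with a fall in red light and a log2 change of 0.56 in darkness (adjusted p = 0.0961).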

How the results depend on the processing

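In the comparison of WT_R18 with WT_R1, 5278 to 5983 probe sets were called with another offset, median scaling, quantile normalization of log2 values, a mean of at least 50 units or the replicate block, 4311 with only the arrays compared, and 4786 to 5486 without 1 array. With no scaling between arrays the count was 1164 and with the 25S covariate 2602, and list members called numbered 54 (72.2% higher) and 98 (62.2% higher). The count past 2-fold was 1826 with an offset of 1, 686 with an offset of 64, and 1118 to 1327 without 1 array. In darkness the count was 33 with a mean of at least 50 units, where fewer probe sets were tested, 4 with the replicate block, 1 with the 25S covariate, 0 with no scaling (777 at an unadjusted p under 0.05) and 0 with only the arrays compared (4499), and 0 to 8 without 1 array. The difference between intervals gave 639 with no scaling (87.5% higher, against 49.4%), 1802 with the 25S covariate (64.2%) and 3533 to 4520 without 1 array. No scaling moved the median log2 change in darkness to -0.105. Unless stated, the cause was not tested. List members called ranged from 134 to 164 without 1 array. Same-numbered arrays of WT_R1 and WT_R18 had deviations correlated at -0.25 to 0.226, and arrays with different numbers at -0.354 to 0.407. With 3 arrays in each group, these values cannot settle whether the numbers pair the groups. Of 18 same-numbered pairs over 4 groups 6 exceeded 0.1, among them all 3 of WT_D18 with WT_R1 (0.129 to 0.484). No other 2 groups had all 3 over 0.1. The replicate block gave 5983 in red light and 4297 for the difference. Of 173 named genes that were called, 59 lost the call with the 25S covariate, 94 with no scaling, 32 with only the arrays compared, 34 in at least 1 fit without 1 array, and 6, 6 and 2 with median scaling, an offset of 1 and the replicate block. None of them reversed direction in any of these settings. Signal over background limits the rest: 10023 probe sets averaged under 50 units. Cross-hybridization between near-identical genes was not tested. In 30 of 147 genes with several probe sets the calls differed, with none opposite.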

Other observations

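Single members of enzyme families outside the greening pathways were called, and the counts below stand beside 10.5% higher and 13.3% lower among all named genes. Of 47 UDP-glycosyltransferases, which attach sugars to small molecules, 8 were called higher and 5 lower. UGT88A1 went from 892, 798 and 812 units in WT_R1 to 1512, 1424 and 1859 in WT_R18, and UGT71C4 from 289, 303 and 373 to 527, 534 and 551. Both rose without overlap, by 0.92 and 0.72. UGT76C1, which glucosylates cytokinins, was below all 6 dark arrays after 1 h and overlapped them after 18 h, a rise of 0.55 (adjusted p = 0.00207, and 0.0601 with the 25S covariate). UGT76E2 went the other way, from 428, 589 and 589 units, above all dark arrays, to 329, 262 and 275. It fell by 0.85 (adjusted p = 0.0012). Of 29 serine carboxypeptidase-like genes 7 were higher and 2 lower. Of the 7 rises, 2 held in every fit with 1 array left out, and with the 25S covariate 2 members were called higher. In 13 of the 29 genes the mean of a red group was under the offset. scpl40 went from 141, 172 and 142 units to 30.1, 52.5 and 39.9 and fell by 1.57, while scpl44 and scpl46 rose by 1.05 and 1.49, the latter from a mean of 10.6 units, under the offset. GSTU18, a tau-class glutathione transferase, rose by 1.39, from 165, 167 and 189 units to 539, 394 and 521, in a list of 14 with 2 higher and 1 lower. BGLU40 rose by 1.31 (adjusted p = 2.38e-05), 1 of 2 among 20 beta-glucosidases called higher. Of 24 cytochrome P450 genes 3 were higher and 1 lower, and of 15 GH9 endoglucanases 2 were lower, GH9B13 and GH9C2, the second by a log2 change of -0.80 beside -0.45 in darkness (adjusted p of the difference 0.415, and 0.258 for the red change with the 25S covariate).

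Members of the TBL family, known for the acetylation of wall polymers, split evenly, with 4 of 22 higher and 4 lower. TBL45 went from 290.1, 290.2 and 325 units to 898, 1078 and 997 and rose by 1.66 (adjusted p = 6.16e-10). TBL39 went from 446, 373 and 447 to 199.6, 214 and 189 and TBL38 from 323, 366 and 374 to 167, 211 and 167. They fell by 1.01 and 0.91, without overlap. TBL25 lay below all dark arrays after 1 h and above them after 18 h, a rise of 0.67 (SE 0.065). Among 15 tetraspanins, small membrane proteins, 4 were lower and none higher. TET4 fell by 0.81 and TET7 by 0.58, the latter beside a log2 change of -0.36 in darkness (adjusted p of the difference 0.395). Both lost the call with the 25S covariate (adjusted p = 0.0755 and 0.0954). Of 12 ubiquitin proteases 3 were lower, among them UBP18 by 0.70 (adjusted p = 0.0002). None of the 15 tetraspanins or 12 ubiquitin proteases was called higher, and 7 and 4 of them had an unadjusted p under 0.05 in either direction.

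Of 16 genes of citrate metabolism 4 were called lower and none higher, with 6 at an unadjusted p under 0.05. In darkness none was called and 7 had an unadjusted p under 0.05. The median log2 change was -0.054 in red light and -0.13 in darkness. Of the 4, ACLA-2 and ACLA-3 encode cytosolic ATP-citrate lyase. ACLA-2 fell by 0.43 (adjusted p = 0.0441), beside -0.42 in darkness (adjusted p = 0.188). Its red call held in 1 of 6 fits with 1 array left out and was lost with the 25S covariate (adjusted p = 0.439). ACLA-3 went from 1522, 1526 and 1531 units to 927, 937 and 887 and fell by 0.72. IDH-V, a subunit of NAD-dependent isocitrate dehydrogenase, fell by 0.35 (adjusted p = 0.000468). Of 15 genes of the mitochondrial genome 2 were lower, beside 13.3% of all named genes: nad4L fell by 0.63, and cox1 by 0.88 (adjusted p = 0.013), a call that held in 3 of 6 fits with 1 array left out and reached 0.0756 without WT_R18 replicate 3. Neither was called with the 25S covariate (adjusted p = 0.215 and 0.123). In the plastid, 3 of 13 factors of RNA editing and splicing were higher. CFM3A, a splicing factor, rose by 0.39 (adjusted p = 0.00568), and LPA66, an editing factor of a photosystem II transcript, rose by 0.56 (adjusted p = 0.0149, and 0.0529 without WT_R18 replicate 3). CRR21, an editing factor of an NDH transcript, rose by 0.48 (adjusted p = 0.0266), held in 2 of 6 fits and reached 0.129 without WT_R18 replicate 3. None of the 3 was called with the 25S signal as a covariate (adjusted p of 0.0855, 0.162 and 0.137).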
